A study of Canis lupus familiaris with 17 samples.

Results

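Carboxypeptidase M (Cpm, transcript XM_003431466.1) was followed in RNA-seq libraries of MDCK-II cells, a dog kidney epithelial line kept in culture. It is 1 of the 21571 transcripts in the deposited tables and was chosen by its measured pattern, a level that went the same way from control to scribKD cells and on from scribKD to scribRES cells. The differences of Cpm between populations therefore made the choice, and they are given below as a description. Cpm is also counted below among called transcripts, and those calls follow from the choice and are no test of it.

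All 3 populations derive from 1 MDCK line that makes a short hairpin RNA against the cell polarity gene scribble when tetracycline (TET) is added. Control cells were this line without TET and carry wild-type scribble expression, scribKD cells were the line with 10 µg/ml TET, and scribRES cells were 1 isolate of it that resists cell competition, also with TET. An effect of TET itself and an effect of the knockdown cannot be told apart, and the 1 isolate cannot be told apart from resistance in general. Cells were plated at 1300000 per dish and harvested for RNA at 67 h. Experiments 1, 2 and 3 each gave 2 control and 2 scribKD libraries, and experiments 2 and 3 each gave 2 scribRES libraries. Replicates 1 and 2 are experiment 1, replicates 3 and 4 experiment 2, and replicates 5 and 6 experiment 3. The labels do not say whether the 2 libraries of an experiment came from separate cultures, so p-values measure the spread between these libraries, part of which may be technical. In bulk RNA, fewer cells that express a gene and less RNA per cell cannot be told apart.

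Carboxypeptidase M is a zinc carboxypeptidase held at the outer face of the plasma membrane by a glycosylphosphatidylinositol (GPI) anchor. It removes a C-terminal arginine or lysine from peptides and proteins, among them the kinins, which it converts from ligands of the B2 receptor to ligands of the B1 receptor, and epidermal growth factor (EGF). The enzyme is abundant in kidney and lung membranes and has long been studied in MDCK cells, and it is also used as a marker of macrophage differentiation.

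Library totals ran from 12612664 to 54644201 reads, with a median of 20157388.5. The highest total is the sum of 2 runs of control replicate 2. Scrib, the targeted gene (XM_003431819.1), had 28.9 ± 3.65 RPKM (reads per kilobase and library depth; SD, n = 6) in control, 12.9 ± 2.69 (n = 6) in scribKD and 13.3 ± 1.23 (n = 4) in scribRES cells, so the knockdown was present in both TET populations. Of the 17 kidney epithelial markers listed, 6 had a name here. Krt19 (697 to 1705 RPKM), Ocln (29.6 to 39.1 RPKM) and Pax8 (22.5 to 53.8 RPKM) were present in every library, whereas the kidney cadherin Cdh16 was at most 6.55 RPKM and Krt7 at most 3.62. The fibroblast marker Dcn and the endothelial marker Vwf were at or near 0, and none of the 8 leukocyte and macrophage markers had a name here.

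In control cells Cpm measured 21.1 and 29.9 RPKM for the libraries of experiment 1, 39.0 and 38.9 for those of experiment 2, then 32.8 and 32.6 for those of experiment 3. Taken in the same order, the scribKD libraries measured 20.1, 22.9, 16.2, 17.4, 17.1 and 13.5 RPKM. For scribRES cells, experiment 2 gave 10.1 and 10.6 RPKM, and experiment 3 gave 9.48 and 9.18. All 4 scribRES libraries lay below all scribKD and all control libraries. Control and scribKD overlapped through 1 pair, since control replicate 1 at 21.1 RPKM lay under scribKD replicate 2 at 22.9, and in the other 35 of 36 pairs the scribKD library was the lower.

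**Figure D1:**
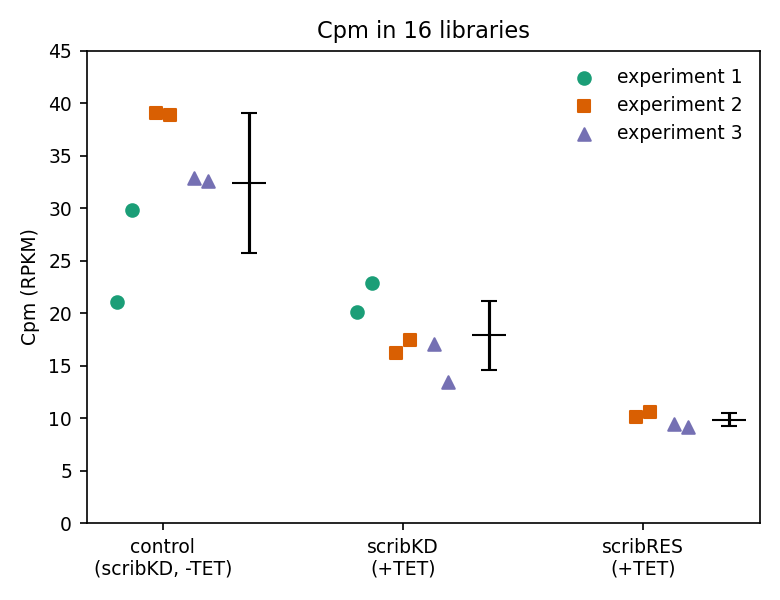
Cpm level in RPKM on the vertical axis for each of 16 libraries, grouped by population, with colour and symbol for the experiment, and the mean with its SD in black. The 4 scribRES points sit between 9.18 and 10.6 RPKM, under every scribKD point, and the only overlap of control with scribKD comes from experiment 1.

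The mean Cpm level was 32.4 ± 6.65 RPKM (SD, n = 6) in control, 17.9 ± 3.26 (n = 6) in scribKD and 9.84 ± 0.630 (n = 4) in scribRES cells. Taken from the mean difference on the log2 scale, the level in scribKD cells was 55.7% of control, and that in scribRES cells 56.0% of scribKD and 31.2% of control. The coefficient of variation was 20.5% in control, 18.2% in scribKD and 6.41% in scribRES libraries. The scribRES libraries come from 2 experiments and the others from 3, so these figures do not compare like with like.

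On the scale of log2(RPKM + 0.1), the difference was -0.84 (SE 0.15) for scribKD over control, -0.84 (SE 0.13) for scribRES over scribKD and -1.68 (SE 0.16) for scribRES over control. With the experiment as a block the same differences were -0.84 (SE 0.14), -0.70 (SE 0.08) and -1.85 (SE 0.10). From the lowest log2 fold change upward, Cpm stood at place 133 of 9691 tested transcripts for scribKD over control, 47 of 10342 for scribRES over scribKD and 5 of 10324 for scribRES over control. These places follow from the values that chose the gene.

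Reads on Cpm, recovered from the steps of the RPKM values, numbered 675 to 2109 per library in control, 350 to 752 in scribKD and 172 to 249 in scribRES cells, which gives a counting error of 2.18 to 3.85%, 3.65 to 5.35% and 6.34 to 7.62% of the level. In control and scribKD cells this is less than the coefficient of variation, and in scribRES cells it is about as large. Control replicate 2 was sequenced in 2 runs, at 30.6 and 29.2 RPKM from 1144 and 965 reads, and was counted once. The RPKM of the 2 runs were averaged and their reads summed, which gives the 2109 reads and the counting error of 2.18%. Ranked among all transcripts above 0 in the same library, Cpm stood at percentiles 62.9 to 76.9 in control, 52.2 to 66.1 in scribKD and 43.1 to 44.8 in scribRES libraries. The gene therefore passed from above to below the middle of the expressed transcripts.

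The 2 libraries of an experiment often agreed closely, and 2 pairs did not. The absolute log2 difference of Cpm within a pair was 0.50 in control cells of experiment 1, where the median over 10706 expressed transcripts was 0.13 and Cpm stood at percentile 96.2. It was 0.34 in scribKD cells of experiment 3, against a median of 0.08 (percentile 96.7). In the other 6 pairs it lay between 0.0059 (control, experiment 2) and 0.19 (scribKD, experiment 1).

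Within the experiments the difference of Cpm between scribKD and control cells was not the same. The mean went from 25.5 to 21.5 RPKM in experiment 1, from 39.0 to 16.8 in experiment 2 and from 32.7 to 15.3 in experiment 3, which are log2 differences of -0.23, -1.21 and -1.10. The scribKD over control difference of experiment 1 exceeded the mean of those of experiments 2 and 3 by 0.93 on the log2 scale (SE 0.17, 95% interval 0.56 to 1.30, limma adjusted p = 0.016), that is, it was nearer to 0. By this test, 199 of 10449 transcripts (1.90%) were called, which takes a limma adjusted p below 0.05 together with a log2 value beyond 0.5 in either direction. Without control replicate 1, the lowest control library, the value was 0.68 (limma adjusted p = 0.060), and the call was lost. With the replicate number within the experiment as a block it was 0.93 (limma adjusted p = 0.0295).

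No difference was called between experiments 2 and 3. Their scribKD over control differences differed by 0.10 (SE 0.20, 95% interval -0.32 to 0.53, limma adjusted p = 0.77; 6.41% of transcripts called). Their scribRES over scribKD differences, -0.70 in both, differed by -0.0025 (SE 0.20, 95% interval -0.43 to 0.43, limma adjusted p = 0.99; 15.8% of transcripts called). These intervals still include differences of up to 0.53 and 0.43.

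With populations balanced, no difference in the level of Cpm between experiments was called. Experiment 3 over experiment 2, averaged over the 3 populations, was -0.18 (SE 0.08, 95% interval -0.36 to -0.01, limma adjusted p = 0.059), with 17.1% of transcripts called in that contrast. Experiment 1 over experiments 2 and 3, averaged over control and scribKD cells, was -0.04 (SE 0.09, 95% interval -0.23 to 0.14, limma adjusted p = 0.70), with 6.58% called. In that average the lower control libraries of experiment 1 and its higher scribKD libraries offset each other.

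**Figure D2:**
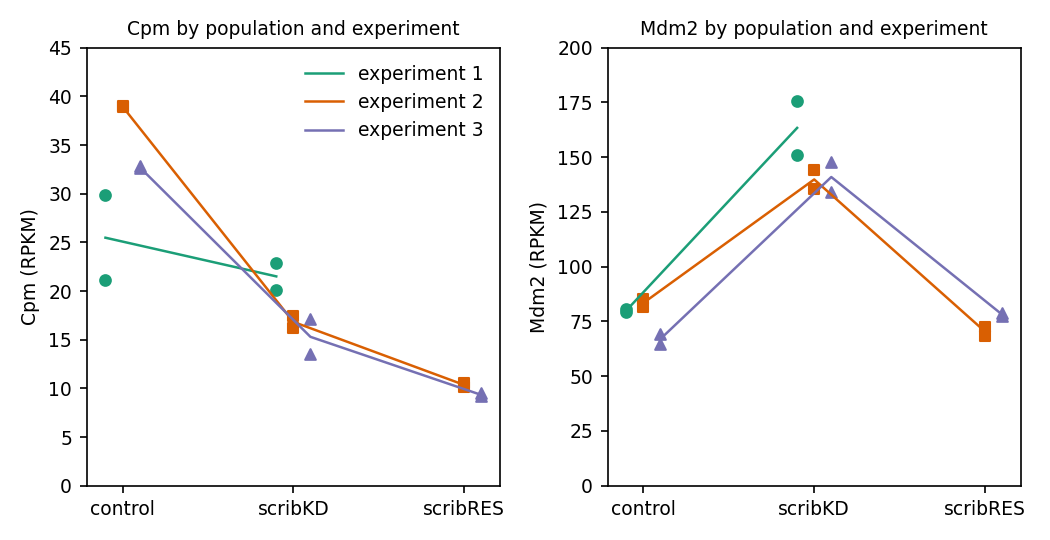
RPKM of Cpm (left) and Mdm2 (right) on the vertical axes by population, with 1 point per library and lines joining the means of each experiment, all axes starting at 0. Cpm goes down at each step while Mdm2 goes up in scribKD and back down in scribRES cells in both experiments that hold them.

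The targeted gene was set beside these values. Its scribKD over control log2 difference was -1.31, -1.01 and -1.21 in experiments 1, 2 and 3, and experiment 1 differed from the mean of the others by -0.20 (SE 0.12, limma adjusted p = 0.33). The smaller Cpm difference in experiment 1 stood beside a Scrib difference of at least the size in the others. For scribRES over scribKD, Scrib measured -0.40 in experiment 2 and 0.24 in experiment 3, a difference of 0.64 (SE 0.13, limma adjusted p = 0.0051), where Cpm was -0.70 in both.

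Among the 9584 transcripts tested in both steps, 64 were called in both, and 3 of these went the same way at both. Cpm was the only one of them that was lower at both steps. The other two had no gene name and were higher at both: XM_003638944.1 went from 4.61 ± 0.928 to 7.02 ± 1.59 and 12.3 ± 0.828 RPKM, and XM_535404.4 from 5.13 ± 1.10 to 7.29 ± 1.45 and 12.5 ± 2.02 RPKM (SD, n = 6, 6 and 4). The share called was 9.52% for scribKD over control and 1.46% for scribRES over scribKD. The count also rests on the size threshold of 0.5. Gprc5b and Crym, among the named profiles nearest to Cpm given below, were lower at both steps with an adjusted p below 0.05. Each missed that threshold at 1 step. Their limma adjusted p was 4.29e-05 and 0.026 for Gprc5b, and 0.049 and 0.044 for Crym. Both steps use the same scribKD libraries, so an error in these moves a transcript in opposite directions at the 2 steps, and the count of Cpm is fixed by the rule that chose it.

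**Figure D3:**
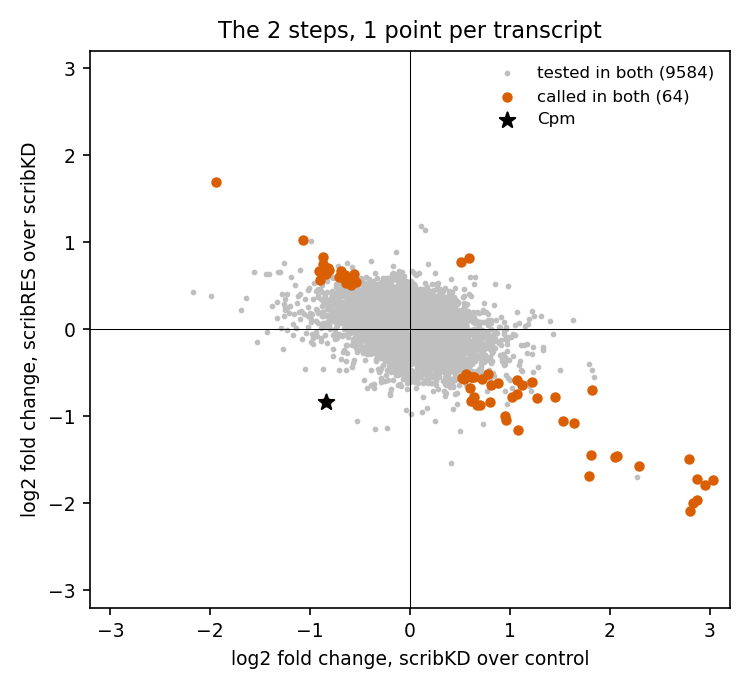
Log2 fold change of RPKM + 0.1 for scribKD over control (horizontal) and scribRES over scribKD (vertical), 1 grey point for each of 9584 transcripts tested in both, orange for the 64 called in both and a black star for Cpm. The star lies in the lower left part, where no orange point other than Cpm's own is found, and 2 orange points lie in the upper right.

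The count of such transcripts depended on how the experiments were treated. Without a threshold on size, 1729 transcripts had a log2 fold change below 0 at both steps and 1934 above 0 at both. Below -0.5 at both steps were 2 and above 0.5 at both were 6. A block for the experiment raised this to 144 called in both steps, of which 13 went the same way, 2 of them lower and 11 higher. The second that was lower was Igfbp4, which encodes an insulin-like growth factor binding protein, at 38.6 ± 14.6, 25.6 ± 6.01 and 13.3 ± 6.64 RPKM (SD, n = 6, 6 and 4), and Egfr was among the 11.

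Cpm neighbours Mdm2 (AB031276.1) directly in the RefSeq gene table of the dog assembly UU_Cfam_GSD_1.0, with no gene between them and no overlap. The files are on CanFam3.1, so coordinates were not taken from that table. Mdm2 encodes the ubiquitin ligase that targets p53 for degradation and is itself a transcriptional target of p53. Because the library kit does not mark the strand, reads of a long non-coding RNA gene that overlaps Cpm in this table cannot be told apart from reads of Cpm where both are exonic.

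Mdm2 measured 64.6 to 85.5 RPKM (median 80.0) in control libraries, 134 to 176 (median 146) in scribKD libraries, and 68.3, 72.5, 77.4 and 78.9 in scribRES libraries. The scribKD libraries lay above all others, and control and scribRES overlapped. Mdm2 rose by 0.95 on the log2 scale in scribKD over control (SE 0.09, limma adjusted p = 1.10e-05) and fell by 0.99 in scribRES over scribKD (SE 0.09, limma adjusted p = 0.00036). Between scribRES and control it differed by -0.04 (SE 0.09, limma adjusted p = 0.78), where 7.89% of transcripts were called and Cpm stood at -1.68. Within experiments Mdm2 was 1.02, 0.74 and 1.07 for scribKD over control, and experiment 1 differed from the mean of the others by 0.12 (SE 0.10, limma adjusted p = 0.50), where Cpm differed by 0.93.

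Of the 5 nearest genes on each side with a named transcript, the others were farther off. On the side of Mdm2 these were Irak3, Msrb3, Tbc1d30 and Mon2, between 35 and 78 genes away in the table, and on the other side Ptprb, Tspan8, Tbc1d15, Mapk8ip2 and Selenoo, between 28 and 132 genes away. Tbc1d30, a Rab GTPase-activating protein, fell by 1.07 in scribKD over control (SE 0.10, limma adjusted p = 1.01e-05) and rose by 1.02 in scribRES over scribKD (SE 0.10, limma adjusted p = 0.00042), the reverse of Mdm2. Irak3, a negative regulator of Toll-like receptor signalling, rose by 0.69 in scribKD over control (SE 0.18, limma adjusted p = 0.013) and was 0.64 higher in scribRES than in control cells (SE 0.19, limma adjusted p = 0.041). Mon2, Ptprb and Tbc1d15 were called higher in scribRES over control, at 0.59, 0.76 and 0.55 (limma adjusted p = 0.0050, 0.047 and 0.0021). Msrb3 (-0.36), Tspan8 (0.38) and Selenoo (0.02) were not called for scribKD over control, nor in the other pairs, and Mapk8ip2 was too low or uneven to be tested. No tested neighbour had a log2 fold change below 0 at both steps. Most of these genes have a name here because they are in the differential lists of the study, so they are not a sample of the region.

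The genes set beside Cpm by function were 173 symbols of carboxypeptidases, surface peptidases, the kinin and EGF systems, plasminogen activation and GPI-anchored proteins, of which 25 were named in the files, by 26 transcripts. The names of 20 of these transcripts come from the study's lists of differential genes, made on these same samples, so the counts are no independent evidence. For scribKD over control, 8 of 13 tested were called, 3 higher and 5 lower (all named transcripts: 43.2%). For scribRES over scribKD, limma called 0 of 15, with 8 at an unadjusted p under 0.05 and 0 by limma-voom on recovered reads (all named transcripts: 6.11%). Neither fit had a block, and the 0 depended on this. With the experiment as a block 5 of 15 were called (757 of 10342 over all transcripts), and with the replicate number as a block 3 (404 of 10342). In experiments 2 and 3 only, 4 of 16 were called (314 of 10501). The share of named transcripts called was not computed for these 3 fits, so their counts lack the background that the other counts have. For scribRES over control, 6 of 15 were called, 3 higher and 3 lower (all named transcripts: 24.9%). The median log2 fold changes were -0.35, 0.26 and -0.03, against 0.017, 0.006 and 0.015 over all transcripts tested.

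**Figure D4:**
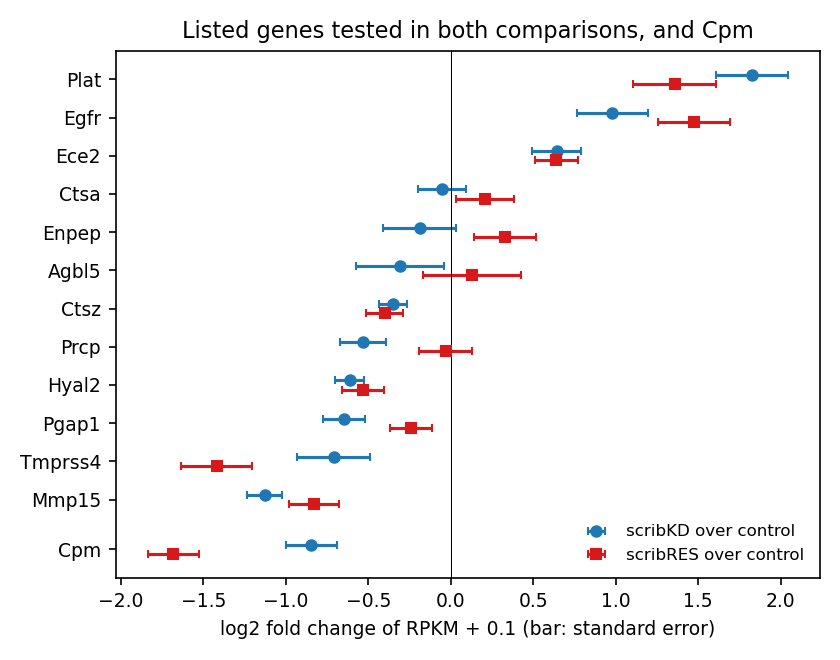
Log2 fold change of RPKM + 0.1 on the horizontal axis, with its standard error, for scribKD over control (blue circles) and scribRES over control (red squares), for the 12 listed transcripts tested in both pairs, with Cpm in the lowest line. Among the genes with a blue point below 0, Tmprss4 and Cpm have their red point to the left of it by more than the bars, and the red point of Egfr lies to the right of its blue one.

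Of the other carboxypeptidases, those with a name were Agbl5, a cytosolic metallocarboxypeptidase that removes glutamate from tubulin tails, and the serine or cysteine carboxypeptidases Ctsa, Prcp and Ctsz of the lysosome. RPKM is per length, so levels can be ordered. In control cells the order was Ctsz (183 ± 19.0 RPKM, n = 6), Cpm (32.4), Ctsa (25.1 ± 4.89), Prcp (25.0 ± 5.35) and Agbl5 (17.0 ± 7.55). Ctsz stood clear of the rest, Cpm overlapped with Ctsa, Prcp and Agbl5 in range, and Ctsa and Prcp did not differ beyond their spread. In scribKD cells Cpm at 17.9 RPKM lay between Ctsa (24.1 ± 4.39) and Prcp (17.1 ± 2.81) and overlapped with both. In scribRES cells Cpm was the lowest of the 5, and its highest library, at 10.6 RPKM, lay below the lowest of Agbl5, at 13.4 RPKM. There Ctsa stood at 29.1 ± 6.48, Prcp at 24.3 ± 4.11 and Agbl5 at 17.4 ± 3.74 RPKM (SD, n = 4), with ranges that overlapped between neighbours.

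Prcp, which removes a C-terminal residue after proline and acts on angiotensin peptides, fell by 0.53 in scribKD over control (SE 0.14, limma adjusted p = 0.015). For scribRES over control Prcp was -0.03 (SE 0.16, limma adjusted p = 0.91). For scribRES over scribKD it was 0.499 (SE 0.14, limma adjusted p = 0.079), and 0.45 with the experiment as a block (SE 0.07, limma adjusted p = 0.0025). Neither was a call, the second being under the size threshold. Its scribKD libraries ran from 14.6 to 21.5 RPKM and its scribRES libraries from 19.7 to 28.7. Ctsz was -0.35 in scribKD over control (SE 0.08, limma adjusted p = 0.0087), under the size threshold. Ctsa (-0.05) and Agbl5 (-0.31) did not pass the test.

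Among the cell surface peptidases, Tmprss4, a transmembrane serine protease, measured 8.01, 5.73, 9.79, 9.98, 9.64 and 8.16 RPKM in control replicates 1 to 6. It measured 3.58, 4.26, 3.87, 4.41, 8.92 and 7.49 RPKM in scribKD replicates 1 to 6, and 2.60, 2.09, 4.10 and 4.01 in scribRES replicates 3 to 6. Control and scribKD overlapped through experiment 3, and scribRES lay below all control libraries. Tmprss4 fell by 0.71 in scribKD over control (SE 0.22, limma adjusted p = 0.034) and by 1.42 in scribRES over control (SE 0.22, limma adjusted p = 0.0023), while scribRES over scribKD was not tested because neither had every library above 5 RPKM. Mmp15, a membrane-type matrix metalloproteinase, fell by 1.13 (SE 0.11, limma adjusted p = 1.06e-05) and 0.83 (SE 0.15, limma adjusted p = 0.0063) in the same pairs, from 17.8 ± 2.65 RPKM in control to 8.03 ± 0.740 in scribKD and 10.0 in scribRES cells. Transcript XM_545229.3 of Ece2, an endothelin-converting enzyme, rose by 0.64 in both pairs (SE 0.15 and 0.13, limma adjusted p = 0.0076 and 0.0091). Enpep, the membrane aminopeptidase A, was -0.19 (SE 0.22, limma adjusted p = 0.59) and 0.33 (SE 0.19, limma adjusted p = 0.25).

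Of 18 kinin system symbols, 3 had a name here. Bdkrb1, the B1 receptor for the kinins that carboxypeptidase M forms, was at most 0.0591 RPKM, Klk1, the tissue kallikrein that releases kinins, was 0 in all libraries, and Prcp, counted above, was the other named member. Anpep, the surface aminopeptidase N, was at most 0.0211 RPKM.

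In the EGF system, the receptor Egfr was higher in both TET populations than in control cells. It measured 8.93, 11.2, 4.61, 5.27, 7.48 and 5.91 RPKM in control replicates 1 to 6, and 19.2, 16.9, 11.6, 9.75, 12.9 and 13.9 in scribKD replicates 1 to 6. The scribRES libraries measured 20.1, 21.1, 17.5 and 18.8 RPKM. Control and scribKD overlapped through control replicate 2 and scribKD replicate 4, and scribRES lay above all control libraries and overlapped with scribKD through its experiment 1. Egfr rose by 0.98 in scribKD over control (SE 0.21, limma adjusted p = 0.0052) and by 1.47 in scribRES over control (SE 0.22, limma adjusted p = 0.0021). For scribRES over scribKD it was 0.49 (SE 0.17, limma adjusted p = 0.13), and 0.69 with the experiment as a block (SE 0.11, limma adjusted p = 0.0034), which made it a call.

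The ligand Egf (AB049597.1) was not tested, since no population had every library above 5 RPKM. Control replicates 1 to 6 measured 1.60, 1.93, 9.14, 10.1, 11.2 and 12.3 RPKM. The scribKD replicates measured 2.44, 2.56, 3.69, 3.66, 5.99 and 5.89 RPKM, and scribRES replicates 3 to 6 measured 2.30, 1.91, 6.53 and 6.32. Both control libraries of experiment 1 lay below all other control libraries, and Egf was lower in scribKD than in control cells in experiments 2 and 3 and higher in experiment 1. Errfi1, a feedback inhibitor of the receptor, was 0.03 for scribRES over control (SE 0.27, limma adjusted p = 0.96).

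Of 3 plasminogen activation genes tested in scribRES over control, 1 was called (7.89% of all transcripts and 24.9% of named ones were called). Plat, tissue plasminogen activator, rose by 1.83 in scribKD over control (SE 0.22, limma adjusted p = 5.54e-05) and by 1.36 in scribRES over control (SE 0.25, limma adjusted p = 0.0065), from 4.67 ± 1.86 RPKM in control to 16.1 ± 3.24 in scribKD and 11.5 in scribRES cells. Plau was -0.21 (SE 0.28, limma adjusted p = 0.64) and Serpine2 -0.91 (SE 0.48, limma adjusted p = 0.21) for scribRES over control. With the experiment as a block Serpine2 was -1.32 (SE 0.35, limma adjusted p = 0.016), which made it a call.

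Of the genes for GPI anchors and GPI-anchored proteins, Pgap1, which removes the inositol acyl chain from the anchor, fell by 0.65 in scribKD over control (SE 0.13, limma adjusted p = 0.0024) and was -0.24 in scribRES over control (SE 0.13, limma adjusted p = 0.22). Hyal2, a GPI-anchored hyaluronidase, fell by 0.61 (SE 0.09, limma adjusted p = 0.00027) and 0.53 (SE 0.13, limma adjusted p = 0.018) in these pairs. Ly6e, a GPI-anchored Ly6 protein, was -0.73 in scribKD over control (SE 0.29, limma adjusted p = 0.089), and with the experiment as a block the same value was called (SE 0.105, limma adjusted p = 7.52e-05). Tfpi was 0 in all libraries, and Alpl, Gpc4, Msln and the second transcript of Ece2 did not pass the filter. Of these untested GPI-anchored proteins, Gpc4 was higher in both TET populations. It measured 0.731 to 2.22 RPKM in control, 4.14 to 8.06 in scribKD and 4.62 to 5.42 in scribRES libraries. Msln overlapped between populations (4.49 to 21.1, 1.04 to 7.86 and 3.78 to 16.2 RPKM), as did Alpl, at most 3.24 RPKM. With the experiment as a block, 5 of 15 listed transcripts tested were called for scribRES over scribKD, where 757 of all 10342 tested were called. Most listed names come from the study's differential lists, and the share of named transcripts called was not computed for this fit. Egfr, Enpep (0.74), Errfi1 (0.60) and Pgap1 (0.56) were higher and Serpine2 (-1.09) was lower. With scribRES absent from experiment 1, the fit without a block sets scribRES libraries of 2 experiments against scribKD libraries of 3.

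For scribKD over control, 3 of 4 tested epithelial markers were called lower (9.52% of all transcripts and 43.2% of named ones were called), Krt19 at -0.57, Tjp3 at -1.19 and Pax8 at -0.73, and Ocln was at 0.03 (limma adjusted p = 0.024, 0.0011, 0.00020 and 0.85). Their scribRES over control values were -0.30, -0.58, -0.56 and 0.06 (limma adjusted p = 0.27, 0.16, 0.078 and 0.73), where Cpm was -1.68. With the experiment as a block, Tjp3 (-0.68, SE 0.08, limma adjusted p = 0.00045) and Pax8 (-0.64, SE 0.16, limma adjusted p = 0.011) were called lower in scribRES over control, and Tjp3 was called higher in scribRES over scribKD (0.50, SE 0.11, limma adjusted p = 0.0088). Krt19, Tjp3 and Pax8 have their names from the study's differential lists. Their part in the Cpm values was not tested.

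The transcripts whose profile was most like that of Cpm were ranked by the root mean square difference of log2(RPKM + 0.1), each profile centred on its own mean, over the 16 libraries. This was done among 10705 other transcripts, with a median distance of 0.74 where Cpm itself varied by 0.70 about its mean. The values are a description, since likeness chose the genes. The 5 nearest of 1558 named transcripts were Gprc5b, an orphan G protein-coupled receptor (0.28, first of all), Id3, an inhibitor of helix-loop-helix transcription factors (0.34, place 2), Ap3s1, a subunit of the AP-3 adaptor (0.39, place 6), Crym, a thyroid hormone-binding protein (0.39, place 7), and Sgk1, a serum- and glucocorticoid-regulated kinase (0.39, place 8). Places 3 to 5 had no name.

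Gprc5b went from 83.3 ± 16.5 RPKM in control to 39.5 ± 3.71 in scribKD and 28.8 ± 1.67 in scribRES cells, with no overlap between any pair of populations. Ap3s1 went from 27.7 ± 5.43 to 11.4 ± 2.38 and 9.57 ± 1.15 RPKM, mostly at the first step. Id3 went from 158 ± 52.7 to 116 ± 21.1 and 74.6 ± 12.7 RPKM, Crym from 30.1 ± 5.95 to 22.1 ± 3.65 and 13.8 ± 2.51 RPKM, and Sgk1 from 45.2 ± 12.8 to 38.5 ± 4.70 and 23.8 ± 0.703 RPKM (SD, n = 6, 6 and 4). The larger log2 difference of Gprc5b and Ap3s1 was at the first step (-1.05 and -1.28, then -0.45 and -0.23), and that of Id3, Crym and Sgk1 at the second (-0.39, -0.44 and -0.19, then -0.64, -0.68 and -0.69). For Cpm both were -0.84.

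The control libraries of experiment 1 set these genes apart. Id3 measured 87.6 and 115 RPKM there against 156 to 232 in the other control libraries, and Sgk1 32.4 and 31.5 against 42.6 to 61.6. Crym measured 24.3 and 21.6 RPKM there against 31.0 to 37.3. For Id3, Sgk1 and Crym, as for Cpm, both lay below all other control libraries. Ap3s1 measured 33.6 and 30.2 RPKM there against 20.7 to 30.7, and Gprc5b 77.1 and 83.5 against 65.9 to 105, so these did not share the low values.

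**Figure D5:**
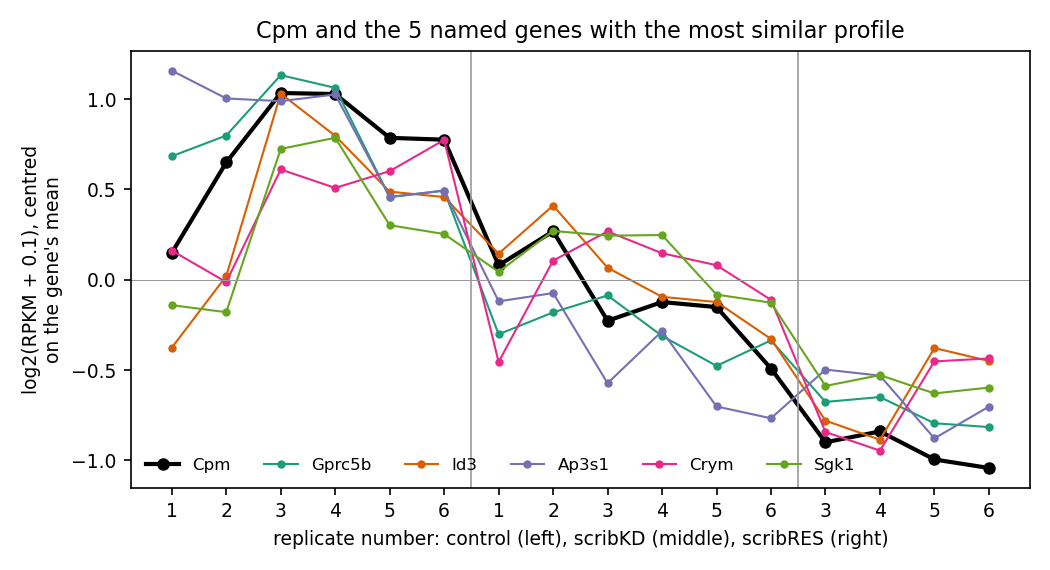
Level as log2(RPKM + 0.1) centred on each gene's mean (vertical) in the 16 libraries (horizontal, replicate numbers within control, scribKD and scribRES), with Cpm as the thick black line and the 5 named genes nearest to it in colour. In control replicates 1 and 2, Id3, Crym, Sgk1 and Cpm lie below their own other control points, and Ap3s1 and Gprc5b do not. For Cpm the gap in replicate 2 is small, at 0.65 against 0.78 to 1.03.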

How the data were processed

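RNA of 3 populations was sequenced in 17 runs of 16 libraries. According to the methods and labels, the authors trimmed and filtered reads by quality (cutadapt 1.0 is named in the processing notes), mapped them with TopHat2 2.0.6 to CanFam3.1 using transcripts placed by BLAT, and deposited RPKM per transcript and run. RPKM are scaled by transcript length and library reads, with no further scaling between libraries stated. RPKM are not counts, so no count model gave a main result. Values fall on steps of 1 read, from which whole reads were recovered for 18873 transcripts (values within 0.001 of a whole number), and 2698 were 0 throughout. Counting errors cover counting only.

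Each pair of populations was fitted with limma 3.58.1 (trend, no block, two-sided, Benjamini-Hochberg over all tested transcripts) in R 4.3.3 on log2(RPKM + 0.1), which understates changes of low transcripts. Tested were transcripts with 1 population or more in which every library exceeded 5 RPKM with no more than 2 times between the lowest and the highest. A call took an adjusted p below 0.05 together with a log2 fold change beyond 0.5 in either direction. Experiment contrasts used 1 fit with a mean per population and experiment over all 16 libraries. The fits were tested on simulated data, in which libraries varied independently, with no experiment effect beyond the changes put in. That test could therefore not show how the fits without a block behave when libraries of an experiment deviate together. Tables and plots used Python 3.11.15, numpy 2.4.6, pandas 2.3.3 and matplotlib 3.10.9. The alternatives were pseudocounts, filters, scaling, other uses of the second run, limma-voom on recovered reads, blocks, experiments 2 and 3 only and leaving out each library.

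Named are Cpm, Scrib, transcripts called the same way at both steps, called listed genes and up to 4 of each list with the smallest adjusted p, up to 5 neighbours on each side and the 5 named profiles nearest to Cpm. Igfbp4 and the values of Egf, Bdkrb1, Klk1, Anpep and other untested members were added after their values were seen. The gene, the lists and the tests were chosen with earlier results of these data known. Names came from the study's lists (1388 and 183 transcripts) and the RefSeq table (413), 1984 of 21571 in all. The fold changes and p-values in those lists were not used. Sequences were not analysed here, and 1 further gene is not reported here.

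Same-numbered libraries deviated from their population means together (mean r 0.579 over transcripts for scribKD with control, 0.340 for scribRES with scribKD), as did the other libraries of the same experiment (0.664 and 0.345), and libraries of other experiments did not (-0.311 and -0.171). The labels give the experiment, so it was used as a block in alternative fits. The main fits of the population pairs had no block and took no account of the experiment.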

Additional observations from a re-analysis of the deposited data

Results flagged for a closer look

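The scribKD over control difference of Cpm in experiment 1 was smaller than in experiments 2 and 3, by 0.93 on the log2 scale in a direct test of the difference (limma adjusted p = 0.016), which is what marked it. Both control libraries of experiment 1, at 21.1 and 29.9 RPKM, lay under the other 4, and both scribKD libraries, at 20.1 and 22.9 RPKM, lay above the other 4. Experiment 1 was the most deeply sequenced, with a median of 27120436 reads per library against 16368549 and 20988428.5. Its part in the difference was not tested. Of 30 groups of libraries examined for a value far from the rest, 0 held one. With 16 libraries in all, such a check could find only a very distant value. It does not bear on control replicate 1, without which the call was lost.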

How the results depend on the processing

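Cpm kept its direction in all 3 pairs of populations under every alternative run. That direction chose the gene in these same libraries, so this is a description and no test of it. The scribKD over control value was -1.15 in experiments 2 and 3 only. Leaving out 1 library gave -0.96 to -0.77, -0.91 to -0.76 for scribRES over scribKD and -1.80 to -1.62 for scribRES over control. Listed genes called for scribRES over scribKD numbered 5 with the experiment as a replicate block, 3 with the replicate number as a block and 4 in experiments 2 and 3 only, and 0 to 2 without 1 library (2 without scribKD replicate 1, 1 without scribKD replicate 6). Without 1 library, scribKD over control gave 6 to 9 and scribRES over control 5 to 6. Under the other alternatives these gave 7 to 10 and 6 to 8. With the replicate number within the experiment as a block, no call of Cpm in the contrasts between experiments changed. For experiment 3 over 2 the limma adjusted p fell to 0.023, with the value still under the size threshold.

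For the Cpm contrasts between experiments, leaving out 1 library gave 0.68 to 1.18 for experiment 1 minus the mean of the others (limma adjusted p 0.0030 to 0.060, lost only without control replicate 1), -0.24 to -0.13 for experiment 3 over 2, -0.17 to 0.083 for experiment 1 over the others, -0.066 to 0.27 for scribKD over control in experiment 3 minus 2, and -0.17 to 0.17 for scribRES over scribKD. The last was also 0.0016 at a pseudocount of 1 and 0.0013 by limma-voom. These reversals concern values near 0.

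Over all transcripts, calls went from 151 to 757 (experiment block), 404 (number block) and 314 (experiments 2 and 3 only) for scribRES over scribKD, and from 815 to 1513 (experiment block) for scribRES over control. With no filter, calls went from 1783 to 3810 for experiment 3 over 2 and from 688 to 1789 for experiment 1 over the others. With the number as a block, they went from 670 to 373 and from 199 to 53 for the scribKD over control differences between experiments. Leaving out 1 library also moved some of these counts by over 1.5 times. The 199 became 57, 107 and 583 without control replicates 1, 5 and 2, and 74, 461, 128, 101, 113 and 115 without scribKD replicates 1 to 6, as well as 127 without control replicate 4. The 151 became 227 without scribKD replicate 1, 72 to 80 without scribKD replicates 2 to 5 and 51 to 71 without any 1 scribRES library. The 815 became 478 and 474 without scribRES replicates 3 and 4. The 670 became 316 and 349 without control replicates 4 and 5, and 330, 352 and 171 without scribKD replicates 3, 4 and 5. Under median-ratio scaling, the 56 higher and 143 lower of the 199 became 89 and 53, 271 and 399 became 354 and 316 for experiment 3 minus 2, and 902 and 752 became 677 and 934 for scribRES over scribKD. The cause of these shifts was not tested. The lowest scribRES library held 172 reads of Cpm.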
